A study of Mus musculus with 4 samples.

Results

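The colony-stimulating factors are the secreted growth factors M-CSF (Csf1), GM-CSF (Csf2) and G-CSF (Csf3). Together with their receptor genes Csf1r, Csf2ra, Csf2rb, Csf2rb2 and Csf3r they make up 8 of the 18193 genes that the array platform names. They were listed by name, and the list was drawn up with earlier results of these data known. All 15 probe sets that carry 1 of these symbols and no other were used on all 4 arrays. The arrays came from peritoneal macrophages of WT and KO mice, labelled strain C57BL6/J, that were treated with vehicle or with lipid A, the TLR4-binding part of bacterial lipopolysaccharide, for 4 h. WT mice were +/+:Setdb1 fl/fl and KO mice were LysM Cre/+:Setdb1 fl/fl, so that both carried the floxed allele of Setdb1, which encodes a histone H3 lysine 9 methyltransferase, and KO mice alone carried Cre. LysM Cre acts in macrophages and also in neutrophils. The cells were attached cells from a peritoneal exudate drawn by thioglycollate, without further sorting in the methods. Age and the number of mice behind an array are not given in the sources used here, and the concentration of lipid A is 10 ng/ml in the series text and 10 µg/ml in the sample labels. Each of the 4 conditions was measured on 1 array, so there is no replicate, no test and no spread between mice for any difference.

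M-CSF acts through a receptor tyrosine kinase, Csf1r, and is the survival and growth factor of most macrophages. GM-CSF acts through an alpha chain, Csf2ra, and a common beta chain, Csf2rb, which recruit the kinase Jak2 and the factor STAT5, and G-CSF acts through Csf3r, mainly on granulocytes. The mouse has a further beta chain gene, Csf2rb2, whose product pairs with the alpha chain of the IL-3 receptor. Macrophages can make these ligands when toll-like receptors are engaged, NF-kB takes part in their transcription, and AU-rich elements make several of their mRNAs short-lived.

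In each case the arrays are given in the order WT with vehicle, WT with lipid A, KO with vehicle, KO with lipid A. Setdb1 itself gave signals of 589 and 521 in WT cells (vehicle, then lipid A) and 346 and 386 in KO cells. The position of its probe set with respect to the floxed exons is unknown, and these signals are therefore no check of the labels. The median signal of an array, over probe sets that are not controls, lay between 65.1 and 84.2, and a signal below the median of its array is treated here as not detected. For a comparison of arrays, a gene is detected if its larger signal reaches the median of that array. A fold against such a signal is given as "at least", computed against that median. The error of a difference between arrays cannot be measured here. As a yardstick, differences are set against the disagreement between probe sets of 1 gene. It leaves out error shared by a whole array, culture or mouse, so a difference beyond it may still be such error. The SD of their log2 differences was 0.39 for lipid A over vehicle in WT and 0.46 in KO. It was 0.42 for KO over WT under vehicle and 0.41 under lipid A. These correspond to 1.31-fold, 1.38-fold, 1.34-fold and 1.33-fold. Marker genes of macrophages were at or above the median in 7 of 7 cases on each array, with a summed signal between 125521 and 165616, most of it from Lyz2 and Cd68. Of these markers, Adgre1 (F4/80) gave 10187, 9216, 3726 and 6633 and was 2.73-fold lower in KO under vehicle, and Mertk gave 888, 1187, 609.9 and 666 and was 1.78-fold lower in KO under lipid A. Other markers were higher in KO, Fcgr1 by 1.94-fold and Itgam by 1.21-fold under vehicle and Cd14 by 1.97-fold under lipid A. Cd68 and Lyz2 were 1.10-fold and 1.18-fold lower in KO under vehicle. Their part in the receptor differences given further on was not tested. In bulk samples such as these, fewer cells of a type and less RNA per cell cannot be told apart.

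The ligand genes Csf1 and Csf2 are shown here with the 250 bases before their starts in RefSeq (GRCm38.p6), since Csf1 was higher with lipid A in both genotypes and Csf2 in KO alone. Both genes lie on the minus strand, and the sequences read 5′ to 3′ toward the gene, with the Csf1 window at chr3:107760470-107760719 and the Csf2 window at chr11:54249900-54250149. Capitals mark every match to 1 of 6 motifs, searched on both strands.
Csf1: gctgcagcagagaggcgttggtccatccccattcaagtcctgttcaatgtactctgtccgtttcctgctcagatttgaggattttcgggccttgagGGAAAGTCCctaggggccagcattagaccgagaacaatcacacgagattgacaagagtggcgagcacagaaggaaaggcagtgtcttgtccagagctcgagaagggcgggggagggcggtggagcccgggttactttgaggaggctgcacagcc
Csf2: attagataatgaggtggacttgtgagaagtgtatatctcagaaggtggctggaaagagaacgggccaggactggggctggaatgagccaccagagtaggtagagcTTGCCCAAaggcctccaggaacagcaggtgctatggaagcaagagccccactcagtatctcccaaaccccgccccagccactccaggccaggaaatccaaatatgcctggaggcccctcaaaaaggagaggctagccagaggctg
The Csf1 window held 1 NF-kB-like match (GGNNNTTCC), GGAAAGTCC as printed, which reads along the motif on the other strand and lies from -154 to -146 of the start. That motif was present in 15.7% of the 32851 promoters of the same length. The Csf2 window held 1 C/EBP match (TTGCNNAA), TTGCCCAA from -145 to -138, a motif present in 9.56% of promoters. Neither window held the AP-1 motif TGANTCA, which was present in 6.75% of promoters, nor the PU.1 motif GAGGAA, present in 23.3%. Neither held TATAAA, which 12.4% of promoters hold, nor the CK-1 core of cytokine promoters, AGATTCCAC, which 0.189% hold. The Csf2 window is set on the outermost start of a gene model that includes a predicted transcript, so it need not be the promoter used in macrophages. A match is a string of letters and was not tested as a binding site, and a window without a match says only that these letters are not in it. The table holds a promoter for 5 of the 8 genes.

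Csf2 was detected in KO macrophages treated with lipid A and in no other condition. Its single probe set, 1427429_at, gave 4.02 with vehicle and 3.78 with lipid A in WT cells, and 3.14 and 1933 in KO cells. The first 3 signals were far below the medians of their arrays. Csf2 was thus at least 23.0-fold higher with lipid A than with vehicle in KO, and at least 25.8-fold higher in KO than in WT under lipid A. With low signals raised to the array median, this was the 3rd largest of 12335 detected genes for KO against WT with lipid A present, and the 51st of 12293 for the response in KO. The difference between both responses ranked 7th of 13567 genes. No spread within KO lipid A can be given, because this rests on 1 probe set of 1 array. T and NK cells can make GM-CSF, and more of their markers reached the median in KO lipid A than on any other array. Of 7 measured, 0 and 2 were at or above the median in WT cells and 2 and 7 in KO cells, and their summed signals were 186, 351, 641 and 759. In KO, Cd8a (64.6 to 166), Cd3e (21.7 to 96.5) and Cd4 (14.7 to 89.9) were higher with lipid A. Cd3d (287 to 151) and Cd3g (140 to 102) were lower. Nkg7 (76.0) and Gzma (77.1) lay close to the KO lipid A median of 75.8. The part of these markers in the Csf2 signal was not tested.

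Few genes shared this pattern. Of all genes, 422 were below the median on the other 3 arrays and above the highest of those medians in KO lipid A, 22 exceeded it by 2 times and 2 by 10 times. The latter were Csf2 and Plet1, a surface protein first studied in placenta, which gave 16.6, 72.4, 8.73 and 1965 on the 4 arrays in that order. Over the 4 arrays, with low signals raised to the median and each gene centred on its mean, Plet1 was the nearest of 13566 genes to Csf2, at a distance of 0.021 on the log2 scale. Raising low signals makes both genes equal on the other 3 arrays, so this distance rests on KO lipid A alone. As deposited, their WT lipid A signals were 72.4 for Plet1 and 3.78 for Csf2. Next came Cish, at 0.86, an inhibitor of cytokine receptors that STAT5 induces, and Edn1, at 1.19, which encodes endothelin 1.

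None of the genes around Csf2 was detected in KO lipid A alone. All 12 protein-coding genes nearest to Csf2, 6 on each side, had a probe set, and 7 of them were at or above the median on both lipid A arrays. Among these 7, the log2 difference of KO over WT under lipid A ran from -1.61 to 0.16. The lowest was Slc22a4, a carnitine and ergothioneine transporter, with 867, 724, 407 and 238 in the same order of arrays. Irf1, an interferon regulatory factor, was higher with lipid A in both genotypes and gave 1879 and 21439 in WT cells (vehicle, then lipid A) and 1626 and 21204 in KO cells. P4ha2, a prolyl hydroxylase subunit next to Csf2, gave 123, 32.2, 97.6 and 121, at least 1.62-fold higher in KO than in WT with lipid A. By the deposited signals 8 of the 12 were detected in this comparison. Among them 2 were over 3-fold different, Slc22a4 lower and P4ha2 higher, against 5.73% lower and 6.35% higher of all detected genes. On the other side of Csf2, Il3, whose product shares the beta chain with GM-CSF, was below the median on all 4 arrays.

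Csf1 was higher with lipid A in both genotypes and to a like degree. Its representative probe set, 1460220_a_at, gave 260 with vehicle and 1645 with lipid A in WT cells, and 279 and 1602 in KO cells. Lipid A signals were 6.33-fold higher than vehicle in WT and 5.75-fold higher in KO, which placed Csf1 98th of 12129 and 187th of 12293 detected genes. KO and WT differed by 1.07-fold under vehicle and by 1.03-fold under lipid A, both less than the 1.34-fold and 1.33-fold SD between probe sets.

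The other 3 probe sets of Csf1 were also higher with lipid A in both genotypes. Probe set 1448914_a_at gave 61.3, 409, 14.0 and 539 on the 4 arrays in that order. Probe set 1425154_a_at gave 93.4, 209, 71.7 and 188, and probe set 1425155_x_at gave 51.3, 115, 12.7 and 110. Over the 4 probe sets the response was from at least 1.76-fold to 6.33-fold in WT and from at least 1.31-fold to at least 6.40-fold in KO. In KO vehicle 3 of them were below the median, so that their genotype difference under vehicle has at most a lower bound. Under lipid A, where all 4 were measured in both genotypes, KO over WT ran from 1.11-fold lower to 1.32-fold higher. The nearest patterns to Csf1 were those of Cflar (distance 0.10), which encodes the caspase-8 inhibitor c-FLIP, Peli1 (0.12), a ubiquitin ligase of toll-like receptor signaling, and Nlrc5 (0.19), a transactivator of MHC class I genes.

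Csf3 was also higher with lipid A in both genotypes, at low signals. Its probe set, 1419427_at, gave 18.2 and 173 in WT cells (vehicle, then lipid A) and 17.4 and 136 in KO cells. Both vehicle signals were below the median, and the response was at least 2.65-fold in WT and at least 1.62-fold in KO. Under lipid A the KO signal was 1.27-fold lower than the WT signal, within the SD between probe sets. Csf2 was thus the only ligand among Csf1, Csf2 and Csf3 whose 2 lipid A arrays differed by more than that SD.

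**Figure D1:**
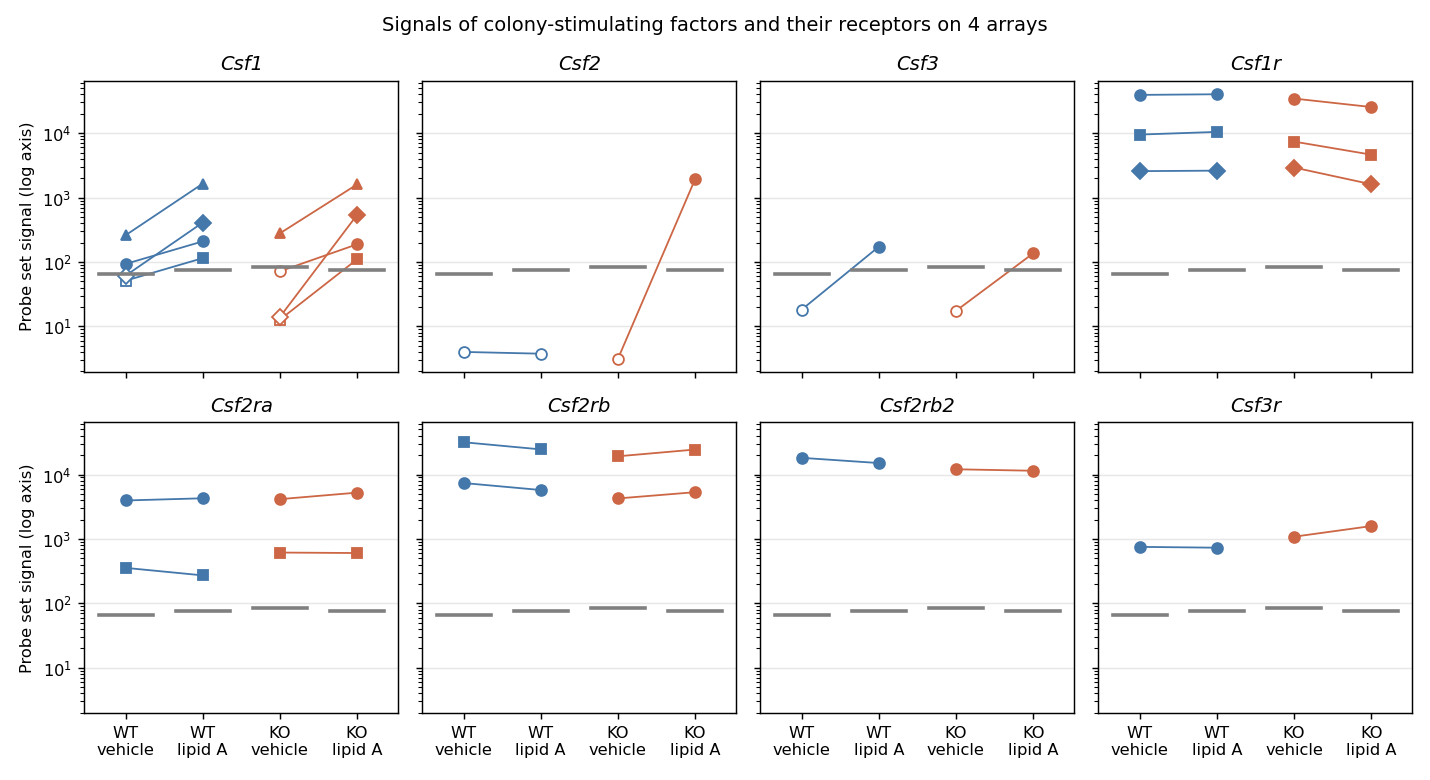
Signals of the 15 probe sets of 8 genes (log axis) on the 4 arrays, WT in blue and KO in orange, with a marker shape for each probe set of a gene, lines joining vehicle and lipid A, open symbols below the array's median and grey bars at the median of all probe sets that are not controls. Csf2 lies at 3.14 to 4.02 on 3 arrays and at 1933 in KO lipid A, Csf1 is higher with lipid A in both genotypes, and all receptor probe sets stay above the medians on every array.

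All 5 receptor genes were above the median on all 4 arrays in every probe set. None was past 2-fold with lipid A in either genotype, nor past 3-fold between genotypes, in any probe set.

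Csf1r, the M-CSF receptor, was lower in KO than in WT under lipid A in all 3 probe sets. Probe set 1419872_at gave 39294 with vehicle and 40196 with lipid A in WT cells, and 34472 and 25476 in KO cells. Probe set 1419873_s_at gave 9513, 10467, 7408 and 4644 in the same order, and probe set 1423593_a_at gave 2575, 2621, 2932 and 1613. KO lipid A was the lowest array for each of them. KO was 1.58-fold, 2.25-fold and 1.62-fold lower than WT under lipid A, each more than the 1.33-fold SD between probe sets, and 10.5% of detected genes lay below the first of these values. Under vehicle the 3 probe sets gave 1.14-fold lower, 1.28-fold lower and 1.14-fold higher in KO, all within the SD. With arrays scaled to a common median they were log2 -0.56, -0.73 and -0.18, of which the first 2 exceeded the SD of 0.42.

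The lipid A response of Csf1r was 1.02-fold to 1.10-fold higher in WT and 1.35-fold to 1.82-fold lower in KO, where 2 of the 3 probe sets exceeded the SD. Relative to the array medians, which were 0.20 higher on the log2 scale in WT lipid A and 0.37 higher in KO vehicle than in WT vehicle, the WT response turned to log2 -0.17 to -0.06, and the KO response stayed below 0 at -0.71 to -0.28. The nearest patterns were those of Ufd1 (distance 0.048), a cofactor of the segregase p97, Morn2 (0.052) and Nsf (0.052), a membrane fusion ATPase.

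Csf2rb, the signaling chain shared by the receptors of GM-CSF, IL-3 and IL-5, was lower in KO than in WT under vehicle and close to WT under lipid A. Probe set 1455660_at gave 31714 and 24559 in WT cells (vehicle, then lipid A) and 19188 and 24428 in KO cells. Probe set 1421326_at gave 7378, 5748, 4253 and 5319 in the same order. KO was 1.65-fold and 1.73-fold lower under vehicle, and 1.01-fold and 1.08-fold lower under lipid A. With lipid A both probe sets were 1.28-fold to 1.29-fold lower in WT and 1.25-fold to 1.27-fold higher in KO, each within the SD between probe sets. With arrays scaled to a common median the responses were log2 -0.57 and -0.56 in WT and 0.50 and 0.47 in KO, each beyond that SD.

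Csf2rb2, which lies next to Csf2rb in the genome, gave 18170.0 with vehicle and 15070 with lipid A in WT cells, and 12068 and 11442 in KO cells on 1449360_at. It was 1.51-fold lower in KO under vehicle and 1.32-fold lower under lipid A. Of all detected genes, 4.27% lay below Csf2rb and 6.42% below Csf2rb2 in KO over WT under vehicle. The paralogs are alike enough that a probe set annotated to both, 1450200_s_at, exists on the platform, and so the split of signal between them is uncertain. That probe set is no member by the rule and gave 530, 480, 226 and 441, 2.34-fold lower in KO under vehicle and 1.09-fold lower under lipid A.

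Csf2ra, the binding chain for GM-CSF, gave 3955 and 4277 in WT cells (vehicle, then lipid A) and 4147 and 5235 in KO cells on 1420703_at, and 356, 272, 615 and 605 on 1420704_at. KO was higher than WT under lipid A in both, by 1.22-fold and 2.22-fold, and only the second exceeded the SD between probe sets. Under vehicle the first was 1.05-fold higher in KO, and lower by 0.30 on the log2 scale when arrays were scaled to a common median. The second was 1.73-fold higher, and higher by 0.42 on the log2 scale with that scaling.

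Csf3r, the G-CSF receptor, gave 753 with vehicle and 731 with lipid A in WT cells, and 1083 and 1583 in KO cells on its probe set, 1418806_at. Both KO signals were above both WT signals. KO was 1.44-fold higher under vehicle and 2.16-fold higher under lipid A, where 96.7% of detected genes lay below it. With lipid A it was 1.03-fold lower in WT, within the SD between probe sets and higher by 0.033 on the log2 scale with quantile normalization, and 1.46-fold higher in KO. The nearest patterns were those of Gp5 (distance 0.091), a platelet glycoprotein, Mettl1 (0.10), a tRNA methyltransferase, and Shisal1 (0.14). Csf3r is a gene of neutrophils as well as of monocytes, and neutrophil markers differed between the genotypes in both directions. Of 9 measured, 4, 3, 5 and 3 were at or above the median on the 4 arrays in that order, with summed signals of 5546, 4363, 1438 and 1145, while S100a9 and Cxcr2 were below the median on all arrays. Most of that sum came from Mmp8, with 3599, 2346, 399 and 217, and S100a8, with 1727, 1721, 569 and 676. Camp, with 81.8, 78.4, 21.1 and 46.9, was also lower in KO. Mpo (69.5 and 102), Elane (16.9 and 106), Ngp (23.8 and 78.8) and Ltf (11.3 and 99.7) were instead lower in WT than in KO under vehicle, several of these signals being below the median. Under lipid A, Mpo (5.47 and 3.77), Elane (39.7 and 48.9) and Ltf (25.1 and 6.24) were below the median in WT and KO. Ngp gave 45.9 and 91.1 there. The part of the neutrophil markers in the Csf3r signal was not tested.

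**Figure D2:**
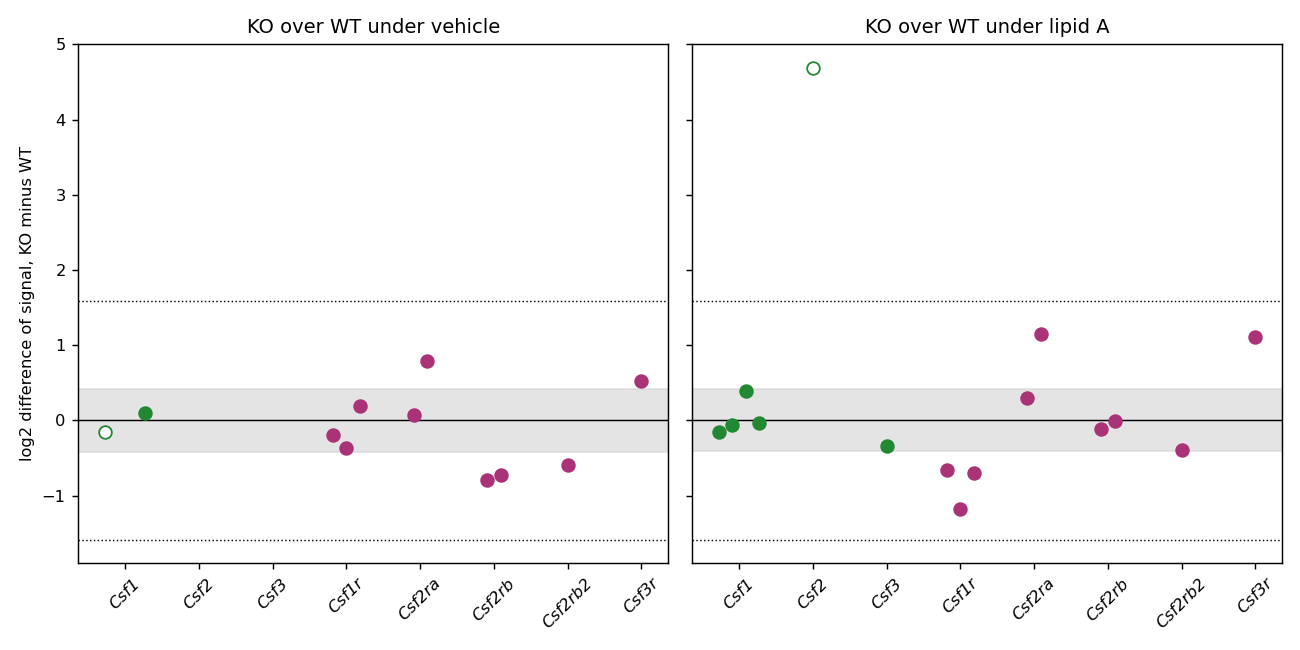
Difference of log2 signal between KO and WT for each probe set, ligands in green and receptors in purple, under vehicle (left) and lipid A (right). Open circles have 1 signal raised to its array's median, probe sets below the median on both arrays are left out, the grey band is 1 SD between probe sets of a gene (0.42 and 0.41) and dotted lines mark 3-fold. Csf2 under lipid A, at 4.69, is the only symbol beyond 3-fold.

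Counted over genes by the ratio of signals as deposited, 2 of the 7 members detected in WT were over 2-fold higher with lipid A, Csf1 and Csf3, and 0 were lower. Of all 12129 genes detected, 11.8% were higher and 8.94% lower. In KO 3 of 8 were over 2-fold higher, Csf1, Csf2 and Csf3, of which Csf3 has a lower bound of 1.62-fold, and 0 were lower, against 11.2% higher and 16.0% lower of 12293 genes. Between KO and WT under vehicle, 0 of 6 were over 3-fold different, against 6.28% higher and 3.65% lower of 12002 genes. Under lipid A 1 of 8 was over 3-fold higher, Csf2, and 0 were lower, against 6.35% and 5.73% of 12335 genes. The response in KO exceeded that in WT by over 3-fold in 1 of 8, again Csf2, and in 8.25% of 13567 genes, while 10.8% were over 3-fold below. With 8 members the smallest share above 0 is 1 of 8, so these counts cannot be read closely against the percentages.

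**Figure D3:**
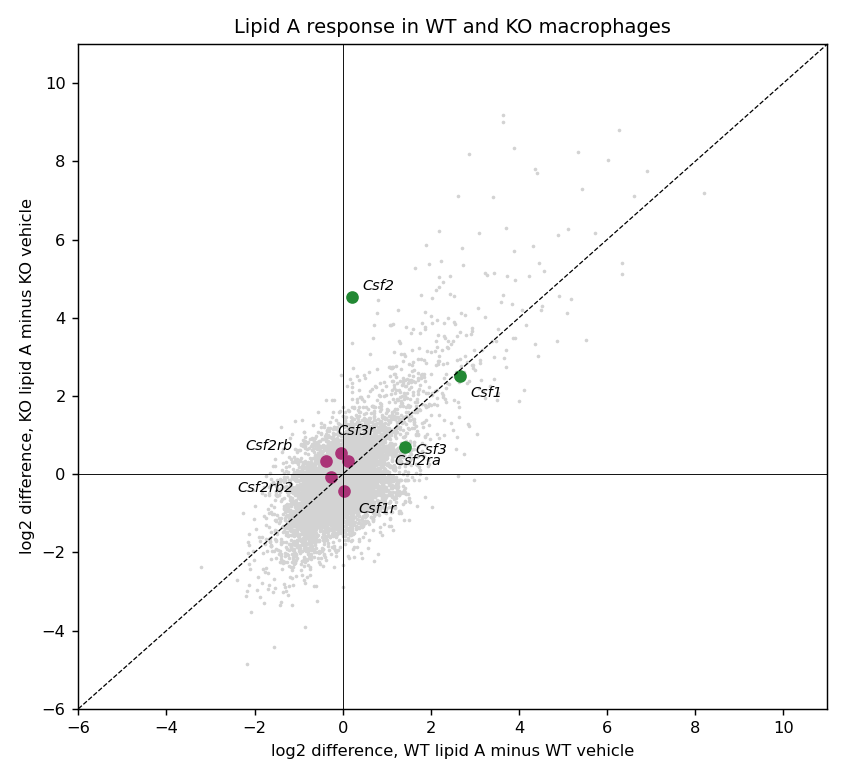
Log2 difference between lipid A and vehicle in KO (vertical axis) against WT (horizontal axis) for 13567 genes detected on at least 1 array (grey), with low signals raised to the array median, ligands in green and receptors in purple. Csf1 lies near the dashed line of equal response, Csf2 at 4.52 in KO with no WT signal above the median, and the receptors near 0 on both axes.

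Genes that act beside or below these receptors were described from 8 lists. Their counts for KO against WT with lipid A stand beside 6.35% over 3-fold higher and 5.73% over 3-fold lower among all 12335 detected genes, and their medians beside -0.013. Of the 5 other ligands and receptor chains, 2 were detected in the comparison of KO and WT under lipid A and 0 were over 3-fold different. Il3ra, the alpha chain of the IL-3 receptor, gave 615, 548, 961 and 579 on the 4 arrays in that order. Il34, the alternative ligand of Csf1r, was below the median on all arrays.

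Of 8 measured kinases and STAT factors, 4 were more than 2-fold above vehicle in each genotype, in both cases Jak2, Stat5a, Syk and Src. The share of all detected genes above vehicle by that much was 11.8% in WT and 11.2% in KO. The kinase Fes alone was more than 2-fold below vehicle, in KO, with 642, 639, 1044 and 406, against 16.0% of all detected genes in KO. Among these 8, 1 was over 3-fold higher in KO than in WT under lipid A, 0 were lower, and the median log2 difference was 0.35. Stat5a, the factor downstream of GM-CSF, gave 458 and 1206 in WT cells (vehicle, then lipid A) and 459 and 3867 in KO cells. In KO it was 3.21-fold higher under lipid A, and its other probe set 6.73-fold higher. Stat5b, its paralog, gave 808, 640, 638 and 1156, with KO 1.81-fold above WT under lipid A. Jak2, the kinase bound to the beta chain, gave 1260, 5411, 807 and 7153, so that its response to lipid A was 4.29-fold in WT and 8.86-fold in KO. Of 13 adaptors and members of the Ras-MAPK and PI3K branches, 0 were over 3-fold different in either direction, with a median of -0.12. The adaptor Grb2, for one, gave 6745, 5397, 5328 and 3898.

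Of 12 inhibitors of these receptors, 3 were over 3-fold higher in KO under lipid A, 0 were lower, and the median was 0.16, against 6.35% and 5.73% of all detected genes. All 3 are among the 4 listed members of the SOCS family, which STAT factors induce and which shut off cytokine receptors. The fourth, Socs1, gave 21.0, 240.2, 79.2 and 274, with KO 1.14-fold above WT under lipid A, and its difference of responses, -1.72 on the log2 scale, was over 3-fold in the other direction but rests on vehicle signals below the median. Cish gave 60.5 with vehicle and 143 with lipid A in WT cells, and 124 and 1772 in KO cells, a KO signal 12.4-fold higher under lipid A. Socs3 gave 545, 2484, 195 and 14394 in the same order, with KO 5.79-fold higher under lipid A but 2.80-fold lower under vehicle. Socs2 gave 93.0, 135, 155 and 508, with KO 3.77-fold above WT under lipid A. For each of these, KO lipid A was the highest array. The remaining 9 inhibitors, among them the phosphatase Ptpn6 at 3453, 4509, 2852 and 3259, were within 3-fold. In both genotypes 2 inhibitors were over 2-fold lower with lipid A, the inositol phosphatase Inpp5d with 1128, 365, 1158 and 323 and the adaptor Dok2 with 652, 150, 850 and 173. Of all detected genes, 8.94% were over 2-fold lower with lipid A in WT and 16.0% in KO. The KO and WT signals of Inpp5d and Dok2 under lipid A lay 1.13-fold and 1.16-fold apart.

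Of 11 genes known as targets of GM-CSF or STAT5, 4 were over 3-fold higher in KO under lipid A by the deposited signals, 0 were lower, and the median was 0.64. Osm, the cytokine oncostatin M, gave 130 and 267 in WT cells (vehicle, then lipid A) and 179 and 1191 in KO cells, a KO signal 4.45-fold higher under lipid A. The chemokine Ccl22 gave 60.4, 9.44, 42.9 and 392, at least 5.24-fold higher. Against the array median the other two were at least 2.87-fold higher (Irf4, a factor of alternatively activated macrophages) and at least 2.24-fold higher (Ccl17, a ligand of the receptor Ccr4). Irf4 gave 24.2, 9.48, 199.96 and 215, and so was already above the median in KO vehicle. Its other probe set gave 33.7, 60.3, 8.91 and 146, below the median in KO vehicle. B cell markers, which summed to 515, 329, 5346 and 5532, were also higher in KO. Their part in the Irf4 signal was not tested. Not all targets were higher in KO, and Pparg, a lipid receptor that GM-CSF induces in alveolar macrophages, gave 1570, 545, 2085 and 279, 1.96-fold lower in KO under lipid A.

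Of 8 M-CSF targets, 7 were detected under lipid A, where 1 was over 3-fold higher in KO, 1 was lower, and the median was 0.55. Ccnd2, cyclin D2, gave 62.0, 291, 255 and 1805 on the 4 arrays in that order, 6.20-fold higher. Fos, an immediate early factor, gave 1416, 786, 3640 and 243, with KO 3.23-fold lower under lipid A but 2.57-fold higher under vehicle. Under vehicle, 2 of the 8 were over 3-fold higher in KO, Egr1 at 3.17-fold and Ccnd2 at 3.92-fold or more, against 6.28% of all detected genes, and the median was 1.36, against 0.097.

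Of 12 transcription factors of these genes, 0 were over 3-fold different between KO and WT under lipid A, with a median of 0.27. Rel, the NF-kB subunit c-Rel, gave 247 with vehicle and 848 with lipid A in WT cells, and 254 and 1951 in KO cells, a KO signal 2.30-fold higher under lipid A. Nfkb2 gave 238, 1087, 39.8 and 2793, 2.57-fold higher. Cebpa, a myeloid factor of the Csf3r and Csf1r promoters, gave 2744, 1175, 3260 and 446, 2.64-fold lower. By their representative probe sets, Rel, Rela and Nfkb2 were more than 2-fold above vehicle in both genotypes, and Jun and Cebpa more than 2-fold below. All detected genes gave 11.8% above and 8.94% below in WT, and 11.2% above and 16.0% below in KO.

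Of 9 proteins that bind AU-rich or stem-loop elements of these mRNAs, 2 were over 3-fold higher in KO under lipid A, 0 were lower, and the median was 0.39. Zfp36l1 gave 477, 260, 1377 and 996, 3.82-fold higher, while its other probe set gave 98.0 in WT and 147 in KO under lipid A. Zc3h12a, the RNase regnase-1, gave 322, 674, 163 and 2292, 3.40-fold higher, while its other probe set was 1.01-fold lower. Zfp36, tristetraprolin, gave 847, 1943, 1638 and 3467, 1.78-fold higher.

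**Figure D4:**
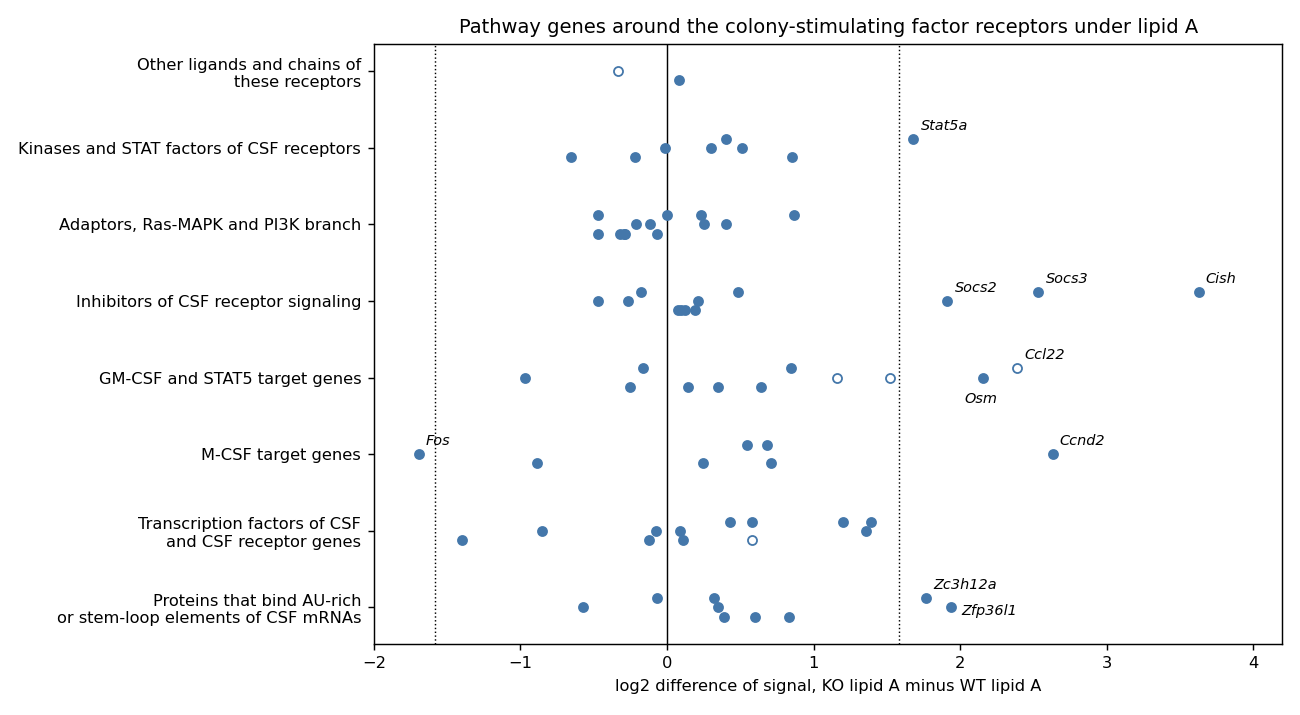
Log2 difference between KO lipid A and WT lipid A for the detected genes of each pathway list, 1 circle per gene, open where 1 signal was raised to its array's median, with dotted lines at 3-fold and genes beyond them named. Most genes lie within 3-fold, and Cish, Socs3 and Socs2 stand furthest to the right among the inhibitors.

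Markers of other cells moved with genotype, and their part in these results was not tested. B cell markers summed to 515 and 329 in WT cells (vehicle, then lipid A) and 5346 and 5532 in KO cells, with 3, 2, 5 and 4 of 5 at or above the median. Markers of resident large peritoneal macrophages summed to 457, 434, 1852 and 1540, with 4, 3, 5 and 5 of 6 at or above the median and Timd4 below it on all arrays.
Fibroblast and mesothelial markers summed to 1793, 1555, 905 and 751, with 6, 6, 5 and 5 of 9 at or above the median and Upk3b and Krt19 below it throughout. Markers of mast cells, basophils and eosinophils summed to 212, 204, 397 and 393, with 7 of 8 below the median on all arrays and Kit above it in KO alone. Dendritic cell markers summed to 270, 290, 450 and 173, with 2, 2, 2 and 1 of 4 at or above the median and Flt3 and Xcr1 below it throughout.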

How the data were processed

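Total RNA of 4 samples was hybridised to Affymetrix Mouse Genome 430 2.0 arrays, 1 array per group. The authors deposited 1 table of probe set intensity values on a linear scale, made with software that the sources used here do not name. Trimmed by 2% at both ends, the signals of each array averaged 500.004, so each array had been scaled to a common mean, and no further normalization was applied. The ratio of 3′ to 5′ control probe sets lay between 1.79 and 2.19 for actin and between 0.945 and 1.35 for Gapdh.

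Of 45037 probe sets that are not controls, 34945 have 1 gene symbol in the platform annotation, 932 have several and 9160 have none. Where a gene has more than 1 probe set, the one of highest average log2 signal stands for it, and every probe set of a member is described. A gene was detected in a comparison when the higher signal reached its array's median. Thresholds were over 2-fold for lipid A and over 3-fold for KO against WT. Likeness of pattern is the Euclidean distance of centred log2 signals. No test was possible, and the number of arrays limits the precision.

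The text names all members, Setdb1, markers and some genes of each pathway list with large differences, not always the largest. It also names the 3 nearest patterns of Csf1, Csf2, Csf1r and Csf3r, and leaves out those of Csf3. Genes next to Csf2, Ptpn6, Pparg, Il34, Il3ra and the genes of the closing section were named after their values were seen. Of 86 genes in the 8 pathway lists, 78 have a probe set with 1 symbol. Members and lists were chosen with earlier results of these data known. Alternatives were other scalings, other treatments of low signals, other probe sets per gene, other filters and other thresholds. Counting was tested on simulated data with known folds. Python 3.11.15, numpy 2.4.6, pandas 2.3.3 and matplotlib 3.10.9 were used. Detection calls of the study's methods were not used here.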

Additional observations from a re-analysis of the deposited data

Results flagged for a closer look

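For 3 receptor genes the lipid A response had opposite signs in WT and KO in every probe set, and with 1 array per condition the difference was not tested. Many of the single responses were small. As deposited, the WT responses were log2 0.026 to 0.14 for Csf1r and -0.042 for Csf3r, within the SD of 0.39. Those of Csf2rb were -0.37 and -0.36 in WT and 0.32 and 0.35 in KO, within the SDs of 0.39 and 0.46. The share of all genes with opposite signs is not given here, so the signs cannot be read against it. For Csf1r, KO response minus WT response was -0.47 on the log2 scale for 1419872_at, -0.81 for 1419873_s_at and -0.89 for 1423593_a_at. For Csf2rb it was 0.68 for 1421326_at and 0.72 for 1455660_at. For Csf3r it was 0.59 for 1418806_at. The SD of this quantity between probe sets of 1 gene was 0.50. With arrays scaled to a common median the differences became -0.12, -0.46 and -0.54 for Csf1r, whose WT response then also lay below 0, 1.03 and 1.07 for Csf2rb, and 0.94 for Csf3r. With quantile normalization the WT response of Csf3r lay at 0.033, and so no longer opposed that in KO.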

How the results depend on the processing

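No paired analysis was possible because each group holds 1 array and no replicate numbers are shared, and for the same reason no replicate could be left out. Of 100 recomputed counts of members, 94 stayed within 1.5 times the count reported and 6 did not. With both arrays required at or above the median, members over the threshold numbered 1 for lipid A in WT, 1 for lipid A in KO, 0 for KO against WT with lipid A, and 0 for the difference of responses, since Csf2 and Csf3 have a vehicle or WT signal below the median by the construction of that filter. With probe sets limited to those with no letter before _at, 1 member was higher with lipid A in WT, since Csf1 has no such probe set. With a threshold of 2-fold, 2 members were higher in KO than in WT under lipid A, the second being Csf3r. Of the member values, 217 moved by less than the SD between probe sets, 18 moved by more, and 0 of those past a threshold changed sign. Raising low signals to the median put Csf2 at 4.69 on the log2 scale for KO against WT with lipid A, and Csf3 at 0.69 for the KO response, under the 2-fold line. The median over probe sets put Csf1 at -1.25 for KO over WT under vehicle and at 1.38 for the difference of responses, both resting on signals below the median. Of 40 list medians, 9 changed sign with arrays scaled to a common median, 6 with probe sets limited to those with no letter before _at, 5 with the median over probe sets, 2 with low signals raised to the median, 1 with quantile normalization and 0 with 64 added to each signal. Signals below the median of an array carry little information on a fold, which limits Csf2, Csf3 and 3 of the 4 Csf1 probe sets.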

Other observations

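Genes below the median on 3 arrays and detected in KO lipid A, ordered by signal over the highest of those medians, began with Plet1, Csf2, Il23a, Ccl22, Penk, Hdc, Il10, Trib1, Shisa3 and Acvr1c. Il23a, the IL-23 subunit p19, gave 7.36 with vehicle and 62.9 with lipid A in WT cells, and 1.52 and 422 in KO cells, 5.01 times that median. Penk, which encodes proenkephalin, gave 24.8, 9.53, 22.4 and 360.4 in the same order, 4.28 times the median. Hdc, the enzyme that makes histamine, gave 8.51, 4.46, 13.8 and 320.4, 3.81 times the median. Il10, an anti-inflammatory cytokine, gave 5.75, 8.65, 23.4 and 275, 3.27 times the median. These genes were named after their values were seen, and each rests on 1 array.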
